A study of Mus musculus with 8 samples.

Results

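Cxcl9, Cxcl10, Cxcl11 and Cxcl16 are 4 chemokine genes that were read from 8 RNA-seq libraries of primary mouse cortical astrocytes, 4 of the 54146 genes listed in every library. Their rows were found by gene symbol, and the choice of these genes was made with earlier results of these data known. The cells came from C57BL/6 pups in the first postnatal week and all carried a lentiviral short hairpin RNA, 1 hairpin against Gstm1 (GSTM1 KD) or a non-silencing one (control KD), so that both knockdown states went through infection and selection. To enrich astrocytes, the cultures were shaken to remove oligodendrocyte lineage cells and microglia, and CD11b+ cells were then depleted magnetically. Each knockdown was sequenced without stimulation (the basal level) and 6 h into stimulation with 50 ng/ml of TNF-α, which makes 4 groups of 2 libraries. The comparisons address how loss of GSTM1, a glutathione S-transferase, alters these chemokines at rest and after TNF-α.

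CXCL9, CXCL10 and CXCL11 are small secreted chemokines that bind CXCR3, a receptor of activated T cells and NK cells, and they were first described as products of interferon-stimulated cells. CXCL16 differs from them. It is made as a transmembrane protein, is cut from the cell surface mainly by ADAM10, and binds CXCR6, so it is not a CXCR3 ligand and is described here beside the other three. In inflamed brain, astrocytes are a source of CXCL10, and the Cxcl10 gene is switched on both by NF-κB, which TNF-α activates, and by interferon-activated STAT and IRF factors.

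The libraries held 17349676 to 34434633 estimated counts, and 19434 to 21610 genes had a count. The targeted gene followed the labels: Gstm1 stood at 230 and 377 CPM in basal control KD against 29.0 and 31.3 CPM in basal GSTM1 KD, and at 209 and 390 CPM against 24.3 and 23.3 CPM under TNF-α. CPM is a count put on a common scale through the library's total, adjusted by edgeR's TMM factor. The 9 astrocyte markers summed to between 2916 and 8887 CPM, with the lowest sum in replicate 1 of control KD in both states. The 12 microglial markers summed to between 3.70 and 14.0 CPM, and the 5 T and NK cell markers had 3 counts or fewer in every library. In these bulk samples, fewer cells that make a transcript and less transcript per cell cannot be told apart.

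The 3 CXCR3 ligand genes lie side by side on the minus strand of mouse chromosome 5 (GRCm38), and Cxcl16 lies alone on chromosome 11. Cxcl9 (ENSMUSG00000029417.9) spans chr5:92321347-92328079 and is protein coding. Cxcl10 (ENSMUSG00000034855.13) follows at chr5:92346638-92348889, also protein coding, and 133 of its 2252 exonic bases lie opposite an exon of Art3, a gene read from the plus strand. Cxcl11 (ENSMUSG00000060183.6) is at chr5:92359544-92365485. GENCODE classes it as a polymorphic pseudogene and RefSeq as a transcribed pseudogene, because the C57BL/6 allele carries a defect in its reading frame, so its counts measure a transcript and not a chemokine. Of its 3794 exonic bases, 1582 lie opposite the processed pseudogene Gm2673. Cxcl16 (ENSMUSG00000018920.11) spans chr11:70453983-70459984, is protein coding, and shares 552 of 3021 exonic bases with Zmynd15 on the other strand. The libraries were made with a strand-marking kit, but a strand setting for the counting is not given in the sources used here. The counts of the genes opposite were below those of Cxcl10 and Cxcl16: Art3 had 3 to 42 and Zmynd15 had 4 to 45 across the 8 libraries. They were not negligible in basal GSTM1 KD. There Art3 had 23 and 25 counts against 161 and 123 for Cxcl10, and Zmynd15 4 and 6 against 61 and 45 for Cxcl16.

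The 4 transcripts differed widely in level. Per length, in TPM (the deposited unit, which allows genes to be compared), Cxcl10 was the most abundant, then Cxcl16, then Cxcl11, then Cxcl9 in 7 of the 8 libraries. In the remaining library, replicate 1 of basal GSTM1 KD, Cxcl11 and Cxcl9 were both at 0. Unstimulated Cxcl10 read 45.4 and 25.1 TPM in control KD and 14.2 and 12.9 TPM in GSTM1 KD. After TNF-α it read 2800 and 3206 TPM in control KD and 5070 and 3536 TPM in GSTM1 KD, which placed it 25th and 19th, and 7th and 19th, among all genes of those libraries. Cxcl10 had thus become one of the most abundant messages of the stimulated cultures, in both knockdown states. Cxcl16 read 7.82 and 4.01 TPM in control KD and 3.21 and 2.80 TPM in GSTM1 KD before stimulation, against 66.0 and 62.2 TPM and 33.8 and 25.1 TPM after TNF-α. Cxcl11 read 0.18 and 0.15 TPM in control KD and 0 and 0.13 TPM in GSTM1 KD before stimulation, and 17.6 and 9.88 TPM against 20.7 and 7.04 TPM after TNF-α. Cxcl9 read 0.02 and 0 TPM in control KD and 0 in both GSTM1 KD libraries, and after TNF-α 0.95 and 1.29 TPM against 1.32 and 0.95 TPM. In the stimulated groups the libraries of neighbours in this order did not overlap. At the basal level Cxcl11 and Cxcl9 could not be separated, since Cxcl9 had 1 count in all 4 libraries together and Cxcl11 had 0 to 7 counts per library.

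**Figure D1:**
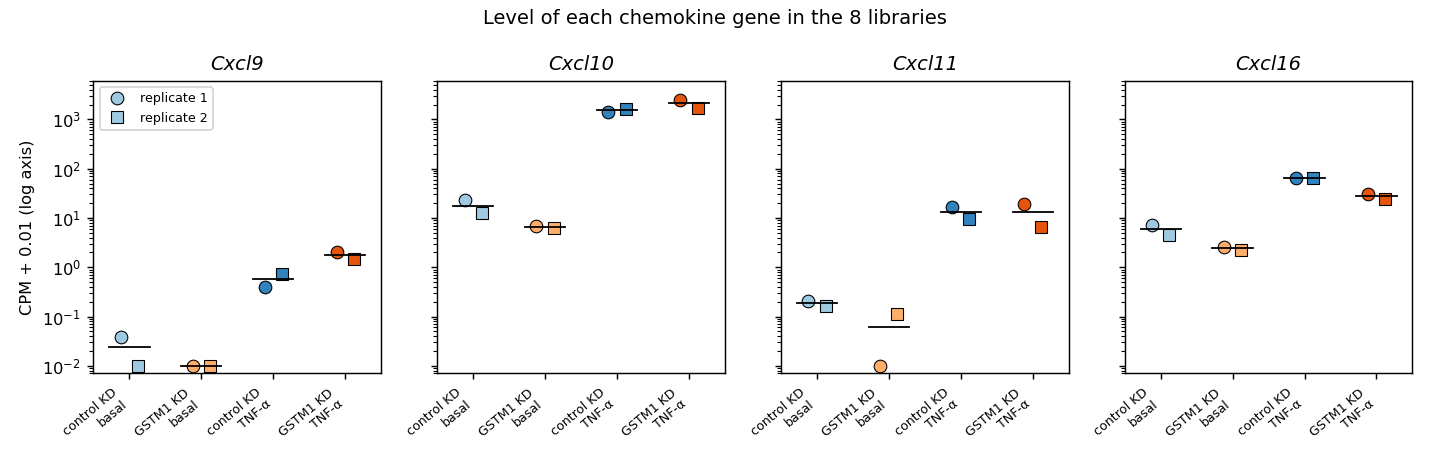
CPM plus 0.01 on a log axis for each gene in the 4 groups; circles are replicate 1, squares replicate 2, and bars the mean of the 2 libraries. Cxcl10 rises from 6.16 to 23.2 CPM at the basal level to between 1418 and 2526 CPM after TNF-α, while Cxcl9 stays at or below 2.03 CPM in every library.

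Promoter windows from RefSeq (GRCm38.p6) were found for 2 of the 4 genes, Cxcl9 and Cxcl10. They are shown because both transcripts rose with TNF-α in GSTM1 KD, and Cxcl10 also in control KD. The 2 promoters are neighbours and differed in the motifs searched for. The 250 bases before each start site are printed 5′ to 3′ on the strand of the gene, chr5:92328080-92328329 for Cxcl9 and chr5:92348890-92349139 for Cxcl10, both on the minus strand. Capitals mark TATAAA in Cxcl9, and in Cxcl10 first GAAA, any 2 bases and GAAA (an interferon-stimulated response element, ISRE), then GGGA, any 2 bases and TTCC (a κB site, the NF-κB motif).
Cxcl9: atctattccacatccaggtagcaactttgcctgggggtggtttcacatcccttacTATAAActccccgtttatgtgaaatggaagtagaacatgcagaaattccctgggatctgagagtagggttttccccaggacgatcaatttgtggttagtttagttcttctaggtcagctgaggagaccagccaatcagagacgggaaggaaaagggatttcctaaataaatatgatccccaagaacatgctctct
Cxcl10: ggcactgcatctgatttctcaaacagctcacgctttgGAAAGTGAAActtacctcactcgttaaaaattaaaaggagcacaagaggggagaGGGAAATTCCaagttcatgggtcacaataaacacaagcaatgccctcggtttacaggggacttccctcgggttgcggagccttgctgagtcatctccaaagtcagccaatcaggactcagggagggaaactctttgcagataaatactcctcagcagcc
Both strands were searched over each window, from 250 bases before to 50 after the start. In Cxcl10 the ISRE letters begin at -213 and the κB letters at -159 from the start site. The ISRE letters occur in 3.44% and the κB letters in 1.47% of 32851 mouse promoters of the same length, and both occur together in 0.067% of them. The Cxcl9 window held neither motif, nor did either window hold TTC, any 3 bases and GAA, a gamma-activated sequence (8.3% of promoters). Looser κB letters (GGG, any 5 bases and CC) overlap at -130 and -129 in Cxcl9, and lie at -159 and, overlapping, at -104 and -103 in Cxcl10, but letters this loose occur in 50.8% of promoters. TATAAA begins at -195 in Cxcl9 and occurs in 13.6% of promoters. Forms of these motifs with letters other than those given were not searched for. A match is a run of letters only, and binding was not measured.

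TNF-α raised 3 of the 4 genes in control KD astrocytes. Cxcl10 rose the furthest, Cxcl11 nearly as far from a very low start, and Cxcl16 less far, while Cxcl9 stayed near the limit of detection. The 3 called genes compare with 2.10% of 15332 genes called higher in this comparison by the quasi-likelihood F-test of edgeR, adjusted by the Benjamini-Hochberg method. Cxcl10 went from 23.2 and 12.5 CPM to 1418 and 1636 CPM, an 85.2-fold rise (log2 fold change 6.41, SE 0.361, adjusted p = 0.000450) and the 14th largest of all genes tested. Cxcl11 went from 7 and 4 counts to 387 and 158 counts (0.198 and 0.156 CPM to 16.7 and 9.50 CPM), with a log2 fold change of 6.15 (SE 0.745, adjusted p = 0.00829). Its stimulated libraries differed from each other far more than those of Cxcl10 or Cxcl16, and both stood far above the basal ones. Cxcl16 went from 7.32 and 4.49 CPM to 65.6 and 63.5 CPM, a 10.8-fold rise (log2 3.44, SE 0.242, adjusted p = 0.000992). Cxcl9 went from 1 and 0 counts to 9 and 12 counts, a ratio of 32.1 after scaling with a 95% counting interval of 5.17 to 1328, and did not pass the test (adjusted p = 0.0550). Such an interval covers counting error only. Without replicate 2 of basal control KD, Cxcl11 no longer passed (adjusted p = 0.0575).

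In GSTM1 KD astrocytes TNF-α raised all 4 genes. Both Cxcl10 and Cxcl16 read lower than control KD at the start, and at the end Cxcl10 read higher and Cxcl16 lower. All 4 passed where 2.35% of 15332 genes were called higher by the same edgeR test. Cxcl10 went from 6.91 and 6.16 CPM to 2526 and 1739 CPM, a 326-fold rise (log2 8.35, SE 0.397, adjusted p = 0.000255), the 6th largest of all genes. Cxcl16 went from 2.62 and 2.25 CPM to 31.0 and 23.9 CPM, an 11.2-fold rise (log2 3.49, SE 0.263, adjusted p = 0.00121). Cxcl11 went from 0 and 2 counts to 415 and 116 counts, a scaled ratio of 294 with a 95% counting interval of 81.0 to 2435 (adjusted p = 0.00604). Cxcl9 went from 0 in both libraries to 44 and 25 counts, at least 12.4-fold higher at a floor of 3 counts per basal library (adjusted p = 0.0124). The calls of Cxcl9 and Cxcl11 were lost without either of the basal GSTM1 KD libraries (adjusted p = 0.0988 and 0.0886 for Cxcl9, 0.0905 and 0.0736 for Cxcl11), and that of Cxcl9 also without replicate 1 of stimulated GSTM1 KD (0.0895).

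At the basal level GSTM1 KD astrocytes held less Cxcl10 than control KD astrocytes. Cxcl16 read lower too but did not pass the test, and Cxcl9 and Cxcl11 had too few counts to be tested. The single gene called lower among the 2 tested compares with 5.62% of 14899 genes. Cxcl10 read 23.2 and 12.5 CPM in control KD and 6.91 and 6.16 CPM in GSTM1 KD, a ratio of 0.365 (log2 -1.45, SE 0.322, adjusted p = 0.0476). Both control libraries stood above both GSTM1 KD libraries, and they differed from each other by more than the gap between the groups. Cxcl16 read 7.32 and 4.49 CPM against 2.62 and 2.25 CPM, a ratio of 0.412 (log2 -1.28, SE 0.325, adjusted p = 0.0642). Neither gene's groups overlapped, as held downwards for 31.2% of the genes tested. Cxcl11 had 7 and 4 counts against 0 and 2, a scaled ratio of 0.256 with a 95% counting interval of 0.0276 to 1.17, so that a difference was not detectable at this depth. The Cxcl10 call rested on both GSTM1 KD libraries: without replicate 1 or replicate 2 of GSTM1 KD the log2 difference was -1.54 or -1.38 with an adjusted p of 0.151 or 0.237, in fits that called 1 or 3 genes of all, and without replicate 1 of control KD the log2 difference shrank to -0.94 (adjusted p = 0.0253). Cxcl16 passed with DESeq2 (adjusted p = 0.0142) and with all 8 libraries in 1 edgeR fit (0.0196). It also passed with the replicate number as a block in the edgeR fit (adjusted p = 0.0034), although the labels do not say what the number marks. With the deposited, isoform-weighted effective lengths as offsets in edgeR, Cxcl16 read -1.04 and did not pass (adjusted p = 0.143). Scaling by library size only, DESeq2's size factors in edgeR or a filter of 10 counts in every library did not bring it past the threshold either. Summed markers of several other cell types also read lower in GSTM1 KD, while those of neurons did not. The 12 microglial markers summed to 14.0 and 6.25 CPM in control KD and 6.26 and 3.70 CPM in GSTM1 KD, so that the groups met near the middle, and of libraries with the same number the GSTM1 KD one was lower. The sum was highest in the library highest for Cxcl10 and Cxcl16 and lowest in the one lowest for both. Of the defining markers, Aif1 had 4, 0, 0 and 0 counts and Itgam, which encodes CD11b, had 61, 8, 3 and 0 in the same order. Tmem119 had 17, 34, 12 and 8 counts, highest in replicate 2 of control KD, and P2ry12 had 0, 0, 1 and 2. None of the 4 microglial markers tested was called. The 6 oligodendrocyte lineage markers summed to 615 and 678 CPM against 472 and 452 CPM, the 6 endothelial markers to 18.7 and 17.5 CPM against 9.14 and 12.2 CPM, and the 5 fibroblast markers to 258 and 426 CPM against 141 and 256 CPM, all without overlap. The 5 neuronal markers summed to 195 and 165 CPM in control KD against 217 and 179 CPM in GSTM1 KD, with overlap. Of single markers, Olig2 (log2 -0.85, adjusted p = 0.0251) and the fibroblast collagen gene Col1a2 (-1.13, adjusted p = 0.0352) fell. The endothelial markers went both ways, with Flt1 at -0.91, Cdh5 at -1.65 and Kdr at 1.39, and none of these 3 passed. The astrocyte sum ran the other way, at 2916 and 6702 CPM against 5887 and 8887 CPM with overlap, and of its 9 markers (median 0.36) none was called higher and S100b was called lower (-1.44, adjusted p = 0.0269). The part of these cell types in the difference was not tested.

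After TNF-α the 4 genes parted. Cxcl16 was lower in GSTM1 KD, by about the ratio it had read at rest, whereas Cxcl10 and Cxcl9 read higher in GSTM1 KD without passing the test and the Cxcl11 groups overlapped. Cxcl16 read 65.6 and 63.5 CPM in control KD and 31.0 and 23.9 CPM in GSTM1 KD, a ratio of 0.418 (log2 -1.26, SE 0.151, adjusted p = 0.0129), and it was the 1 gene of the 4 that passed, where 8.92% of 14593 genes were called lower. The control libraries agreed closely and both were more than 2 times the higher GSTM1 KD library. The call was lost without replicate 1 or replicate 2 of GSTM1 KD (adjusted p = 0.0648 or 0.0735), with log2 differences of -1.45 and -1.08. Cxcl10 read 1418 and 1636 CPM in control KD and 2526 and 1739 CPM in GSTM1 KD (log2 0.46, SE 0.210, adjusted p = 0.179). Its groups did not overlap, as held upwards for 34.7% of genes, but the lower GSTM1 KD library lay close to the higher control one. Cxcl11 read 16.7 and 9.50 CPM against 19.2 and 6.66 CPM (log2 -0.04, SE 0.524, adjusted p = 0.962), and the GSTM1 KD libraries lay on either side of the control ones. The sum of microglial markers after TNF-α was 13.7 and 6.85 CPM in control KD and 7.29 and 4.08 CPM in GSTM1 KD, with the groups overlapping and, of libraries with the same number, the GSTM1 KD one lower. The oligodendrocyte lineage sum was 509 and 545 CPM against 378 and 353 CPM and the endothelial sum 20.2 and 25.4 CPM against 12.7 and 17.6 CPM, without overlap, and the fibroblast sum was 244 and 413 CPM against 148 and 260 CPM, with overlap. The 5 neuronal markers summed to 175 and 165 CPM in control KD against 188 and 160 CPM in GSTM1 KD, also with overlap. Olig2 (log2 -1.14, adjusted p = 0.0101), Olig1 (-0.44, adjusted p = 0.0497) and Col1a2 (-0.99, adjusted p = 0.0250) fell. Of the endothelial markers, Flt1 read -0.76, Cdh5 -1.41 and Kdr 1.25, and none of these 3 passed. The astrocyte sum was 3032 and 6877 CPM against 6102 and 8752 CPM, with overlap, and of its 9 markers (median 0.07) none was called higher and S100b was called lower (-1.71, adjusted p = 0.0387). The part of these cell types in the lower Cxcl16 was not tested.

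**Figure D2:**
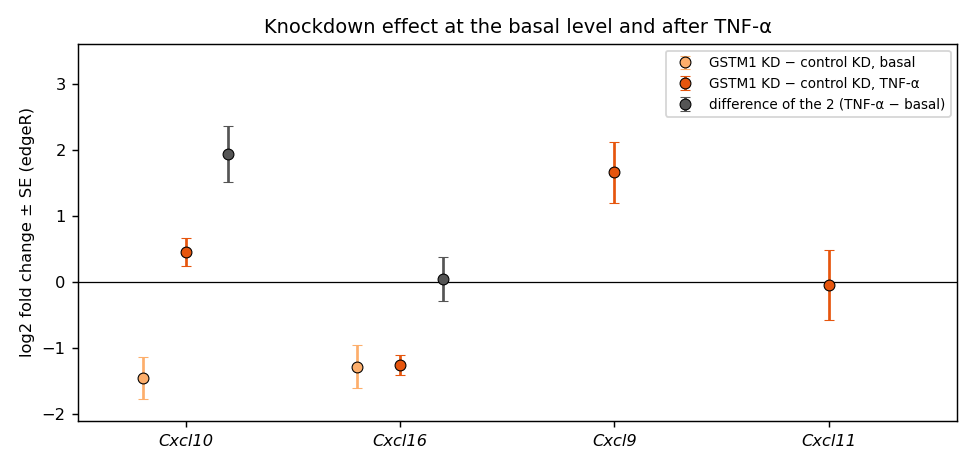
Log2 fold change of GSTM1 KD against control KD without and with TNF-α, and the difference of both, from edgeR; bars are 1 standard error and the basal values of Cxcl9 and Cxcl11, which were not tested, are left out with their differences. Cxcl16 sits at -1.28 and -1.26 in the 2 states, while Cxcl10 goes from -1.45 to 0.46.

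For Cxcl9 the counts and the per-length values gave different answers. The stimulated control KD libraries had 9 and 12 counts and the GSTM1 KD libraries 44 and 25, or 0.387 and 0.722 CPM against 2.03 and 1.44 CPM (log2 1.66, SE 0.457, adjusted p = 0.0630). In TPM the groups overlapped. The deposited effective length of Cxcl9, which weights its isoforms by their estimated abundance, was 695 and 932 bases in control KD and 2651 and 2662 bases in GSTM1 KD. The annotation holds a coding Cxcl9 transcript of 2889 bases in 4 exons and a retained-intron transcript of 370 bases, so the short one was given a larger share in control KD. With effective lengths entered as offsets in edgeR, the log2 difference was -0.03 (adjusted p = 0.976). At 9 and 12 counts the split between the isoforms rests on few fragments, and which of the 2 answers holds was not tested.

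**Figure D3:**
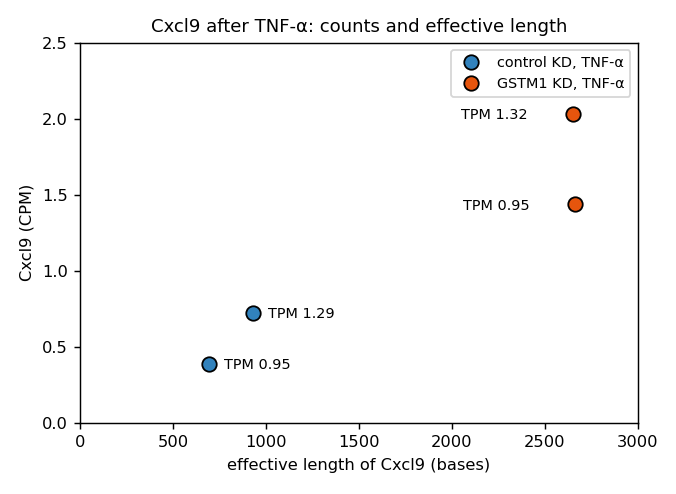
Cxcl9 after TNF-α, with the effective length in bases on the x axis and CPM on the y axis, 1 point per library and its TPM beside it. The control KD libraries sit at short lengths and low CPM and the GSTM1 KD libraries at 2651 and 2662 bases with higher CPM, while the TPM values of the groups overlap.

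Whether the knockdown effect differed between the states was tested by the interaction of knockdown and TNF-α over all 8 libraries. For Cxcl10 the knockdown effect was 1.94 log2 units higher after TNF-α than at the basal level (SE 0.426, unadjusted p = 0.00246 in the edgeR model) and did not pass after adjustment (adjusted p = 0.999999). By edgeR 0 of 15332 genes passed, where 295 (1.92%) had an unadjusted p under 0.05. That is fewer than a threshold of 0.05 gives where nothing differs, so the edgeR test called sparingly here. A gene that did not pass may still differ between the states. DESeq2 called 27 genes, with Cxcl10 among them (log2 1.92, adjusted p = 0.00247). For Cxcl16 the difference was 0.05 (SE 0.333), and for Cxcl9 and Cxcl11 it rested on basal counts at or near 0.

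The ratio of Cxcl10 to Cxcl16 counts shows the same parting within each library, where library size and its scaling cancel. At the basal level the control KD libraries had ratios of 3.17 and 2.78 and the GSTM1 KD libraries 2.64 and 2.73. Under TNF-α the control KD libraries had 21.6 and 25.8 and the GSTM1 KD libraries 81.5 and 72.8. In counts, the basal libraries of both knockdown states lay close together, and the stimulated ones were widely separated. In TPM the basal ratios stood further apart, at 5.81 and 6.25 in control KD against 4.44 and 4.59 in GSTM1 KD. The stimulated TPM ratios were 42.4 and 51.6 against 150 and 141. The ratio of Cxcl10 to Cxcl11 was less even, at 85.1 and 172 for stimulated control KD against 132 and 261 for stimulated GSTM1 KD, with the groups overlapping.

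**Figure D4:**
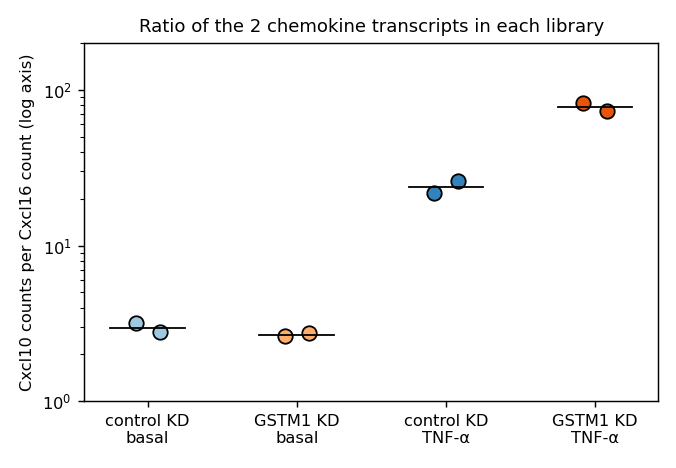
Cxcl10 counts per Cxcl16 count in each library on a log axis, by group; points are libraries and bars the mean of 2. The basal groups lie between 2.64 and 3.17, stimulated control KD at 21.6 and 25.8, and stimulated GSTM1 KD at 72.8 and 81.5.

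Of the receptors of these chemokines, Cxcr3 and Cxcr6 were scarce in the cultures and Ackr3 was not. Cxcr3 had 0 counts in all 8 libraries, which at 3 counts allows up to 0.0848 to 0.180 CPM depending on the library. Cxcr6, the CXCL16 receptor, had 48 and 39 counts in the basal control KD libraries against 6 and 4 counts in those of GSTM1 KD (log2 -2.62, SE 0.412, adjusted p = 0.0261), and 30 and 26 against 13 and 7 after TNF-α (log2 -1.50, SE 0.405, adjusted p = 0.0603). The Cxcr6 libraries of the knockdown states did not overlap in either state, as held downwards for 31.2% of genes without TNF-α and 31.9% with it. Ackr3, which encodes a scavenging receptor that binds CXCL11 and CXCL12, read between 11.9 and 32.2 CPM over the 8 libraries. It fell by 1.24 log2 units in GSTM1 KD at rest (adjusted p = 0.0203) and by 0.83 after TNF-α (adjusted p = 0.0271). Adam10, which encodes the main sheddase of CXCL16, was higher in GSTM1 KD after TNF-α (log2 0.55, SE 0.121, adjusted p = 0.0388) and read 0.42 log2 units higher at the basal level without passing (adjusted p = 0.166). Adam17, a related sheddase, read 0.09 and -0.07 and passed in neither state (adjusted p = 0.626 and 0.742).

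Interferon transcripts themselves were near the limit of detection. Ifng had 0 counts in all 8 libraries. Ifnb1, the interferon β gene, had 0 counts in all 4 basal libraries, 7 and 1 in the stimulated control KD libraries and 25 and 9 in those of GSTM1 KD (log2 2.06, SE 0.753, adjusted p = 0.115). Of the 20 genes tested in the list of interferon and JAK-STAT genes, 5 rose and 3 fell in GSTM1 KD after TNF-α, where 7.26% of all genes were called higher and 8.92% lower. At the basal level 1 of 19 was lower, close to the 5.62% of all genes. Those that rose included Irf9, a subunit of the factor that binds the ISRE (log2 1.07, adjusted p = 0.0178), and Irf7 (1.54, adjusted p = 0.0337). Ifnar1 (-0.49, adjusted p = 0.0265) and Jak2 (-0.44, adjusted p = 0.0385) fell. So did Irf8 (-2.35, adjusted p = 0.0309), a factor of microglia and other myeloid cells. Irf1, which responds to NF-κB and to interferon and acts on the Cxcl10 promoter, rose with TNF-α by 3.11 in control KD (adjusted p = 0.000239), rose by 3.22 in GSTM1 KD (adjusted p = 0.000255), and read 0.01 and 0.09 between the knockdowns in the 2 states (adjusted p = 0.978 and 0.656).

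After TNF-α, the interferon-induced genes that passed the test were higher in GSTM1 KD, and the other chemokines that passed were lower. Of 20 genes of the type I interferon response, 14 were higher in GSTM1 KD and none was lower, with a median log2 difference of 1.47, where the median over all genes was -0.01 and 7.26% of all genes were called higher. Examples are Ifit3b (2.04, adjusted p = 0.0169), the RNA sensor gene Ddx58 (1.35, adjusted p = 0.0170) and Rsad2, which encodes viperin (2.30, adjusted p = 0.0252). Within stimulated GSTM1 KD the libraries differed, with Rsad2 at 802 and 344 CPM. Without replicate 1 of that group edgeR called 0 genes of all (3273 had an unadjusted p under 0.05), and without its replicate 2 it called 94, so these list counts rest on both. Of 16 genes typical of the interferon γ response, 6 were higher and none lower (median 0.75), among them the GTPase genes Iigp1 (2.52, adjusted p = 0.0177) and Irgm2 (1.59, adjusted p = 0.0253). Of 10 other chemokines tested, 5 were lower and none higher (median -1.05), where 8.92% of all genes were called lower. They were the neutrophil attractants Cxcl1 (-2.96, adjusted p = 0.0346) and Cxcl2 (-2.93, adjusted p = 0.0106), Ccl20 (-2.03, adjusted p = 0.0119) and the monocyte attractants Ccl7 (-1.73, adjusted p = 0.0180) and Ccl2 (-1.03, adjusted p = 0.0216). Of 16 NF-κB genes 3 were lower and none higher (median -0.30): Rela (-0.76, adjusted p = 0.0152), Chuk (-0.74, adjusted p = 0.0164) and Tnfaip3 (-0.88, adjusted p = 0.0315). Cxcl16, at -1.26, lay within the range of the other chemokines, and Cxcl9, at 1.66 without passing, within that of the interferon lists. With effective lengths as offsets Cxcl9 read -0.03, so its place depends on that choice. Cxcl10, at 0.46, lay between the medians of the 2 interferon lists and that of the NF-κB list. By range it lay within each of these lists and within the other chemokines too. Of 8 genes of the mRNA decay list 1 was lower, a share near that of all genes.

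At the basal level the interferon lists did not show this. Of 18 type I interferon genes tested, none was higher and 2 were lower in GSTM1 KD, Ifit1 (-0.89, adjusted p = 0.0385) and Oasl1 (-1.92, adjusted p = 0.0456), and of 16 interferon γ genes none passed. Among 8 other chemokines 3 were lower, Ccl2 (-3.38, adjusted p = 0.0194), Cxcl1 (-2.02, adjusted p = 0.0261) and Ccl7 (-3.09, adjusted p = 0.0270), and Cx3cl1, which like Cxcl16 encodes a membrane-anchored chemokine, was higher (0.71, adjusted p = 0.0285). Of 16 NF-κB genes 4 were lower, including Tnfaip3 (-1.79, adjusted p = 0.0336), where 5.62% of all genes were called lower. Of 8 genes of the mRNA decay list 2 were lower, Zfp36 (-0.80, adjusted p = 0.0296) and Zfp36l2 (-0.76, adjusted p = 0.0348). Cxcl10 thus read on the side of the other lower chemokines at rest and apart from them after TNF-α. In the interaction, 17 of the 20 type I interferon genes and 7 of 16 interferon γ genes had an unadjusted p under 0.05 in the direction of Cxcl10, against 1.29% of all genes, and none passed after adjustment. Of the 10 other chemokines 1 did so, Ccl2 (2.37, SE 0.497, unadjusted p = 0.00186), and Cx3cl1 had such a p in the opposite direction (-0.92, unadjusted p = 0.000323).

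**Figure D5:**
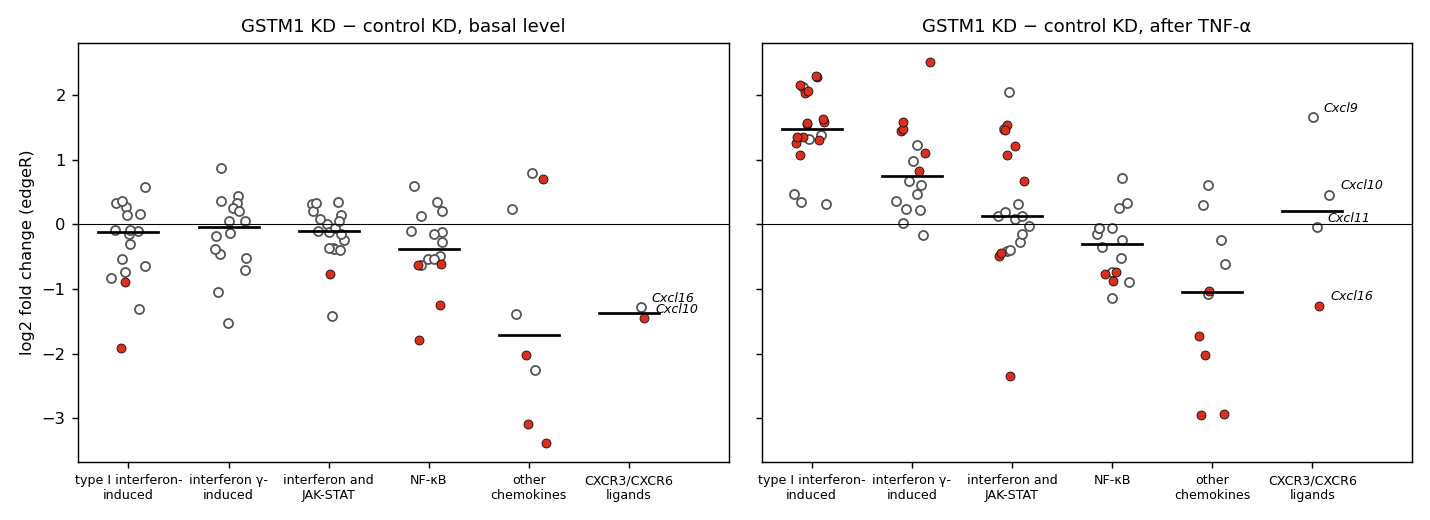
Log2 fold change of GSTM1 KD against control KD for each gene of 6 lists, without and with TNF-α; filled points passed an adjusted p of 0.05 and bars are list medians. The type I interferon list has its median at 1.47 after TNF-α, the other chemokines at -1.05, and Cxcl16 lies with the latter at -1.26.

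Both kinds of gene answered TNF-α. In control KD, 8 of 20 type I interferon genes, 13 of 16 interferon γ genes, 9 of 16 NF-κB genes and 7 of 10 other chemokines rose, and in GSTM1 KD the numbers were 18, 16, 9 and 6, with none lower in these lists. Over all genes 2.10% and 2.35% were called higher. The number of genes called in GSTM1 KD fell without any of its own libraries, most steeply without a basal one. That in control KD also fell without any of its own libraries, so the counts for both states depend on single libraries. Ccl5, another chemokine that T cells follow, rose by 5.41 log2 units in control KD (adjusted p = 0.000459) and by 6.21 in GSTM1 KD (adjusted p = 0.000578). The responses in the 2 knockdown states and the knockdown comparisons draw on the same libraries and are given side by side only.

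Pattern likeness was described by Pearson's r of log2(CPM + 1) over the 8 libraries, which share 4 groups, so that r reflects mainly the group means. The genes most like Cxcl10 were Nfkbia (r = 0.996), Irf1 (0.992), Tlr2, RP23-214L4.1 and Relb, of which Nfkbia and Relb are NF-κB pathway genes. Most like Cxcl16 were Prrx1 (0.998), Ccl7 (0.997), Icam1 (0.997), Csf1 and Ampd3, with differences after TNF-α from -0.61 for Prrx1 to -1.73 for Ccl7. Most like Cxcl9 were Gbp11 (0.994), Tgtp2 (0.993), Cd74, Igtp and Tnfsf10, known interferon-responsive genes. Most like Cxcl11 were a transcript known only by a clone name (0.996), Katna1, Cd70, Gbp4 and Iqsec3. Since these genes were picked on the same libraries, their knockdown differences are no separate evidence. Of these 20 genes, 1 remained by Spearman's rho and 10 with a pseudocount of 0.1, so the lists depend on the measure.

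Of the genes next to or opposite these chemokines, Sdad1 and Zmynd15 rose with TNF-α in both knockdown states, and Art3 in control KD. Sdad1, next to Cxcl9, rose by 0.64 log2 units in control KD (adjusted p = 0.0316) and by 0.58 in GSTM1 KD (adjusted p = 0.0473). Nup54, beyond Cxcl11, read 0.32 and 0.35 without passing and was lower in GSTM1 KD at rest (-0.88, adjusted p = 0.0487) and after TNF-α (-0.88, adjusted p = 0.0218). Art3, which spans Cxcl10 and Cxcl11 on the other strand, had 3 and 8 counts in basal control KD and 31 and 21 after TNF-α (2.77, adjusted p = 0.0459), and 23 and 25 against 42 and 42 in GSTM1 KD (0.96, adjusted p = 0.507). Beside Cxcl16, Med11 read 0.42 and 0.36 without passing, and Tm4sf5 had at most 1 count in any library. Zmynd15, opposite Cxcl16, rose by 2.95 in control KD (adjusted p = 0.0249) and by 2.63 in GSTM1 KD (adjusted p = 0.0437). Whether the counts of Art3 and Zmynd15 hold reads of Cxcl10 and Cxcl16 was not tested.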

How the data were processed

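Messenger RNA was sequenced from cultured mouse astrocytes in 4 groups, each with 2 libraries that the study calls biological replicates, and p-values measure only the spread between these samples. The authors mapped paired-end reads from strand-marking libraries to GRCm38 with STAR (version 2.5.4b) and quantified them with RSEM (version 1.3.0), per the labels and the study's methods. The authors deposited RSEM's expected counts, estimated fragments per gene without normalization. The deposited TPM values are scaled per length and per library by the authors' RSEM run and were used for levels between genes. The deposited effective lengths are isoform-weighted and differ between libraries, which can shift TPM for a gene at equal counts.

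For the tests, the expected counts were rounded and fitted in edgeR (version 4.0.16, R version 4.3.3), with TMM factors and the filterByExpr filter. Its quasi-likelihood F-test was used, p-values were adjusted over all genes tested by the Benjamini-Hochberg method, and 0.05 was the threshold, after the script was tested on simulated data. Knockdown comparisons used the 4 libraries of a state; TNF-α responses and the interaction used all 8. SE is the log2 fold change divided by the square root of F. A gene with 3 or fewer counts in both libraries of a group was below the floor. Alternatives were DESeq2 (version 1.42.0), other scalings and filters, other libraries in the fit, the replicate number as a block, effective lengths as offsets and each library left out.

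The members and gene lists were chosen with earlier results of these data known. Named genes were the 4 members, receptors, sheddases and interferon genes whatever their values, up to 6 called genes per list by p-value, the 5 most alike per member, and neighbours. Gene positions come from GENCODE (GRCm38), with identifiers equal to those in the files, and promoters from RefSeq. Protein sequences were not used here. A named gene of the lists is not reported here.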

Additional observations from a re-analysis of the deposited data

Results flagged for a closer look

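Cxcl10 read lower in GSTM1 KD at rest and higher after TNF-α. Unstimulated, both GSTM1 KD libraries were below both of control KD, and with TNF-α both were above them. Such a lack of overlap held downwards for 31.2% of genes at rest and upwards for 34.7% after TNF-α. The basal difference passed the edgeR test (-1.45, adjusted p = 0.0476) and that after TNF-α did not (0.46, adjusted p = 0.179; 0.17 to 0.70 with each library left out in turn). The difference between the knockdown effects was 1.94 on the log2 scale (SE 0.426), with an unadjusted p of 0.00246 and an adjusted p of 0.999999 in the edgeR model. With each of the 8 libraries left out in turn it stayed between 1.42 and 2.30.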

How the results depend on the processing

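The rises of Cxcl10 and Cxcl16 with TNF-α passed in both knockdown states under every alternative and with every library left out. DESeq2 brought past the threshold Cxcl16 at the basal level (-1.29), Cxcl9 with TNF-α in control KD (5.07) and the Cxcl10 interaction (1.92), and counted 2492 genes at the basal level, 742 and 630 for TNF-α in control KD and GSTM1 KD, and 27 for the interaction, against 1524, 403, 406 and 0. Without a filter on low counts, Cxcl16 at the basal level (-1.31), Cxcl9 (1.65) and Cxcl10 (0.46) between the knockdowns after TNF-α, Cxcl9 with TNF-α in control KD (4.63) and the Cxcl10 interaction (1.95) passed, and the counts were 3957, 4540 (against 2360), 1255, 1050 and 134. All 8 libraries in the basal fit gave Cxcl16 -1.28, now called, and 2762 genes; 4 libraries per response gave 72 genes in control KD and 691 in GSTM1 KD. Effective lengths as offsets turned Cxcl9 after TNF-α to -0.0253 and the Cxcl16 interaction to -0.11, and brought Cxcl9 with TNF-α in control KD past the threshold (5.97). Apart from the effective lengths, the cause was not tested.

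The labels do not say what the replicate numbers mark. The correlation of same-numbered deviations over 15332 genes was positive for every pair of groups, at 0.248 to 0.731. This correlation was highest between unstimulated and stimulated libraries of the same knockdown, at 0.731 in control KD and 0.510 in GSTM1 KD. Between the knockdowns it was 0.369 without TNF-α and 0.290 with it. The main tests, including those of the TNF-α responses and the interaction, did not use the number. With the number as a replicate block, Cxcl16 at the basal level (-1.25), Cxcl9 after TNF-α (1.66) and Cxcl9 with TNF-α in control KD (4.64) passed, and the counts were 4712, 4302, 988 and 808.

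With 1 library left out, the lone library of its group is assumed to vary like the others. Between the knockdowns, the log2 difference of Cxcl10 ran from -1.83 to -0.94 and of Cxcl16 from -1.59 to -0.88 at the basal level. After TNF-α, Cxcl16 ran from -1.45 to -1.08, Cxcl9 from 1.25 to 2.13 and Cxcl11 from -0.995 to 0.52, positive without replicate 1 of control KD (0.44) or replicate 2 of GSTM1 KD (0.52). The fitted response of Cxcl11 ran from 5.68 to 6.51 in control KD and from 6.95 to 11.2 in GSTM1 KD, and that of Cxcl9 from 4.02 to 6.53 and from 8.04 to 8.58. For Cxcl9, and for Cxcl11 in GSTM1 KD, these values stand over basal counts at or near 0, depend on the prior count and do not measure the size of the rise. The Cxcl16 interaction ran from -0.36 to 0.34, below 0 without replicate 1 of basal control KD (-0.36), replicate 2 of basal GSTM1 KD (-0.06) or replicate 1 of stimulated GSTM1 KD (-0.16). Counts of called genes ran from 1 to 5256 and 0 to 5028 between the knockdowns, 180 to 313 and 74 to 444 for TNF-α, and 0 to 2 for the interaction. A filter of 10 counts in every library left no value for Cxcl9 or, in fits with basal libraries, for Cxcl11. Depth limits Cxcl9 throughout and Cxcl11 at the basal level.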
